A study of Mus musculus with 12 samples.

Results

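The genes of the major histocompatibility complex (MHC) class II pathway were examined in whole lungs of newborn mice that lack cavin-1, a coat protein of caveolae, and of wild-type mice. The set held the genes of the class II chains (H2-Aa, H2-Ab1 and H2-Eb1), of the peptide exchange factor (H2-DMa and H2-DMb1), of the invariant chain (Cd74) and of the class II transactivator (Ciita). All probes annotated to these symbols were taken, which gave 13 of the 45281 probes on the Illumina MouseWG-6 array, and 7 of the 19057 genes left once the probes of each gene were merged by their median. The rule used no measured value.

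Lungs came from 6 cavin-1 knockout (KO) and 6 wild-type (WT) mice, with 1 array per mouse. The labels give C57/bl6 mice and an age of at most 6 h after birth, and no treatment. The knockout allele was made with a targeting vector that holds a lacZ/neo cassette, and it is not limited to a cell type. The controls were described as WT littermates, but no label ties a KO mouse to a WT mouse. Mice are named here by group and animal number.

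Cavin1 itself was read first, as a check of the labels. Its probes (ILMN_1243992 and ILMN_2498471) had log2 levels of 2.09 ± 0.49 and 4.55 ± 0.79 in 5 KO lungs and of 8.52 ± 0.28 and 11.66 ± 0.08 in 6 WT lungs (mean ± SD), while the library labelled KO 157 stood at 8.47 and 11.66. This library thus goes against its label, and its title and description carry different animal numbers, so the members are compared with and without it, as are the medians of the pathway lists. On each array, 45.3% to 49.1% of probes had a detection p under 0.05, which is how "detected" is used below. Markers of the labelled tissue were present: all 9 alveolar type 2 cell markers and all 8 endothelial markers were detected on all 12 arrays, and Sftpc, encoding surfactant protein C, averaged 14.24 ± 0.25 in KO and 14.19 ± 0.16 in WT lungs (log2 level, SD, n = 6 each). In either list 0 genes passed an adjusted p of 0.05 between KO and WT lungs (limma). At an unadjusted p under 0.05, 2 type 2 markers were lower in KO lungs and 0 higher. For endothelial markers 4 were higher and 0 lower, with 13.7% of all genes there in either direction. The smallest p of the type 2 list was that of Lamp3 (−0.40, adjusted p = 0.137 from limma).

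MHC class II molecules present peptides from endocytosed proteins to CD4+ T cells. Each molecule is a pair of an alpha and a beta chain, held together in the endoplasmic reticulum by the invariant chain, which blocks the groove and directs the complex to endosomes, where H2-DM exchanges the last fragment of the invariant chain for a peptide. Constitutive expression is typical of dendritic cells, B cells, macrophages and thymic epithelium, and alveolar type 2 cells of the mouse lung express class II as well. Transcription of the class II chain genes depends on Ciita, which binds no DNA itself but is recruited to an assembly of RFX, CREB and NF-Y factors on the X and Y boxes of the class II promoters.

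The genes of the class II chains and of H2-DM lie together on chromosome 17 (GRCm38.p6, RefSeq). From the start of the group these are H2-DMa at chr17:34119693-34139101, H2-DMb1 at chr17:34153191-34160229, H2-Ab1 at chr17:34263227-34269418, H2-Aa at chr17:34282744-34287823 and H2-Eb1 at chr17:34305867-34316674. Cd74 and Ciita lie on other chromosomes.

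Promoter windows from 250 bases before to 50 bases after the start were taken from RefSeq (GRCm38.p6) and matched 4 of the 7 genes with 5 entries, H2-DMa having more than 1 start. H2-Ab1, Cd74 and Ciita were not matched. The core of the Y box (GATTGG, either strand) was found in 16.1% of 32851 mouse promoters and in 4 of these 5 entries. The core of the X box (AACNGATG, either strand) was found in 2.32% of all promoters and in 2 of the 5 entries, those of H2-Eb1 and H2-DMb1. An X core followed by a Y core within 40 bases on the gene's strand occurred without overlap in 0.0244% of all promoters, 8 in number. These were H2-Eb1, with 21 bases between the cores, H2-DMb1, with 22, the related H2-Eb2 and H2-DMb2, and 4 promoters of other genes. The 100 bases around the Y core of an alpha chain, a beta chain and an exchange gene are shown because these elements are the ones searched for, with each core found in capitals. They are H2-Aa (chr17:34287838-34287937, minus strand), H2-Eb1 (chr17:34305742-34305841, plus strand) and H2-DMb1 (chr17:34153064-34153163, plus strand), each written along the gene.
H2-Aa: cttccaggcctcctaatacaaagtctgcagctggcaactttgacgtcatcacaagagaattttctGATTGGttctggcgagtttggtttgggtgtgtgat
H2-Eb1: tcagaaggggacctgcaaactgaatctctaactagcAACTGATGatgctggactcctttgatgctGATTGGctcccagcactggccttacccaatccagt
H2-DMb1: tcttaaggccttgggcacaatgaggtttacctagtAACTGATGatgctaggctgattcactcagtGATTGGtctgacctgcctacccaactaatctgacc
In the H2-Aa window only the Y core matched. A match describes the letters of the window, and a missing match says nothing of whether a factor binds.

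None of the 7 genes passed the test between KO and WT lungs. The group means of the 6 detected members lay close together, with confidence intervals that reached 0.517-fold and 2.33-fold, while the class II chain genes spread more widely among KO lungs than among WT lungs. For 6 of the 7 genes at least 1 probe was detected on all 12 arrays, while Ciita was not detected on any. In limma's fit over all genes, 0 of 7 members passed an adjusted p of 0.05, and 0 had an unadjusted p under 0.05, with 0.199% of all genes called and 13.7% at an unadjusted p under 0.05, so that a count of 0 among 7 is near the share over all genes. KO and WT lungs overlapped for all 7 members, as they did for all but 1.48% of genes. Without the library labelled KO 157 again 0 of 7 members passed, with 0.115% of all genes called (12% at an unadjusted p under 0.05). On single probes 0 of 13 passed, with 0.148% of all probes called, and the groups overlapped for all 13, as for all but 1.43% of probes. No member probe had an unadjusted p under 0.05, with 13.4% of all probes there.

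H2-Aa encodes the alpha chain of I-A, the class II molecule that C57BL/6 mice carry on the cell surface. Its probe (ILMN_2734729) gave 6.54, 7.66, 6.12, 6.45, 7.60 and 9.44 in KO 157, 186, 192, 235, 237 and 238, and 7.51, 7.48, 7.29, 7.05, 7.37 and 6.97 in WT 142, 177, 179, 182, 187 and 188 (log2 level). WT lungs thus lay in a narrow band, and no KO lung lay inside it, with 3 below all WT lungs and 3 above. Of the 5 KO lungs other than the library labelled KO 157, 2 were below and 3 above. As bead signals before any correction, the same probe read 148 in the dimmest KO lung, KO 192, and 670 in KO 238, and 231 to 347 in the WT lungs. The means were 7.30 ± 1.22 in KO and 7.28 ± 0.22 in WT lungs (SD, n = 6 each), a KO minus WT difference of 0.02 on the log2 scale (SE 0.41, adjusted p = 0.989 from limma). This is a fold of 1.02, with a 95% confidence interval from 0.555 to 1.86. That interval is for a single gene and is not the limit of detection. A call after adjustment over 19057 genes would have needed a larger change.

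H2-Ab1 encodes the beta chain that pairs with the product of H2-Aa, and it is read by 3 probes. The merged levels were 5.27, 6.76, 5.66, 5.53, 6.75 and 8.77 in KO 157, 186, 192, 235, 237 and 238, and 6.80, 6.46, 5.75, 6.26, 6.37 and 5.59 in WT 142, 177, 179, 182, 187 and 188. KO 238 was again above every other lung, 2 KO lungs were below all WT lungs (1 without the library labelled KO 157), and the rest overlapped the WT lungs. KO lungs exceeded WT lungs by 0.25 on the log2 scale (SE 0.46, adjusted p = 0.866 from limma), which is 1.19-fold (95% confidence interval 0.609 to 2.33). Its 3 probes did not disagree, with differences of 0.11 (ILMN_1226525), 0.25 (ILMN_2631423) and 0.20 (ILMN_2913716), and each was detected on all 12 arrays.

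H2-Eb1 encodes the beta chain of I-E, the second class II molecule of the mouse. Its probe (ILMN_1239102) gave 5.56, 6.52, 5.58, 4.54, 6.61 and 8.52 in KO 157, 186, 192, 235, 237 and 238, and 6.40, 6.69, 5.96, 6.24, 6.19 and 5.63 in WT 142, 177, 179, 182, 187 and 188. KO 238 was again the highest lung and 3 KO lungs were below all WT lungs (2 without the library labelled KO 157), KO 235 the furthest. The means differed by 0.04 (SE 0.47, adjusted p = 0.984 from limma), which is 1.03-fold (95% confidence interval 0.517 to 2.03).

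The subunits of H2-DM, which removes the remnant of the invariant chain and edits the bound peptide, varied less than the class II chains among KO lungs (SD 0.55 for H2-DMa and 0.34 for H2-DMb1), though not among WT lungs (0.33 and 0.47). H2-DMa gave 6.38, 7.37, 6.51, 6.77, 7.45 and 7.73 in KO 157, 186, 192, 235, 237 and 238, and 6.96, 7.49, 7.18, 6.87, 7.50 and 6.71 in WT 142, 177, 179, 182, 187 and 188. The groups overlapped widely, with KO 238 highest and KO 157 lowest. The difference for H2-DMa was −0.09 (SE 0.23, adjusted p = 0.914 from limma), and its probes fell on either side of 0, at 0.10 (ILMN_2777769) and −0.27 (ILMN_2866856), neither past the threshold.

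H2-DMb1 gave 5.65, 5.97, 5.75, 5.38, 5.99 and 6.38 in KO 157, 186, 192, 235, 237 and 238, and 6.31, 5.94, 5.66, 5.78, 5.67 and 4.89 in WT 142, 177, 179, 182, 187 and 188. Here the lowest lung was a WT lung and KO 238 exceeded the highest WT lung by little. The means differed by 0.15 (SE 0.22, adjusted p = 0.832 from limma), which is 1.11-fold (95% confidence interval 0.798 to 1.53). The neighbouring gene H2-DMb2 is a close copy, so the H2-DMb1 probe (ILMN_1244977) may read part of it.

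Cd74, which encodes the invariant chain, lies on chromosome 18 (chr18:60803849-60812652) and was read by 3 probes. Its merged levels were 8.44, 9.40, 9.18, 8.08, 8.67 and 10.04 in KO 157, 186, 192, 235, 237 and 238, and 8.55, 9.67, 9.19, 9.02, 8.93 and 8.73 in WT 142, 177, 179, 182, 187 and 188. KO 238 was highest, followed by WT 177, and KO 235 and KO 157 were below all WT lungs. The means differed by −0.05 (SE 0.27, adjusted p = 0.962 from limma), which is 0.968-fold (95% confidence interval 0.649 to 1.44).

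The Cd74 probes gave unlike differences. They were −0.04 (ILMN_3089584), −0.34 (ILMN_1221817, adjusted p = 0.580 from limma) and −0.78 (ILMN_1247832, SE 0.42, adjusted p = 0.440 from limma), and none passed. The last of these was dim, with bead signals of 94.4 to 153 on the 12 arrays, and was detected in 4 of 6 KO and 6 of 6 WT lungs.

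The Ciita gene lies on chromosome 16 (chr16:10480014-10531064). Its probes (ILMN_2568407 and ILMN_2678211) were undetected on all 12 arrays, with bead signals of 83.7 to 106, so its values are at background and neither a level nor a difference between the groups is read from them. What follows on the members therefore rests on the other 6 genes.

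**Figure D1:**
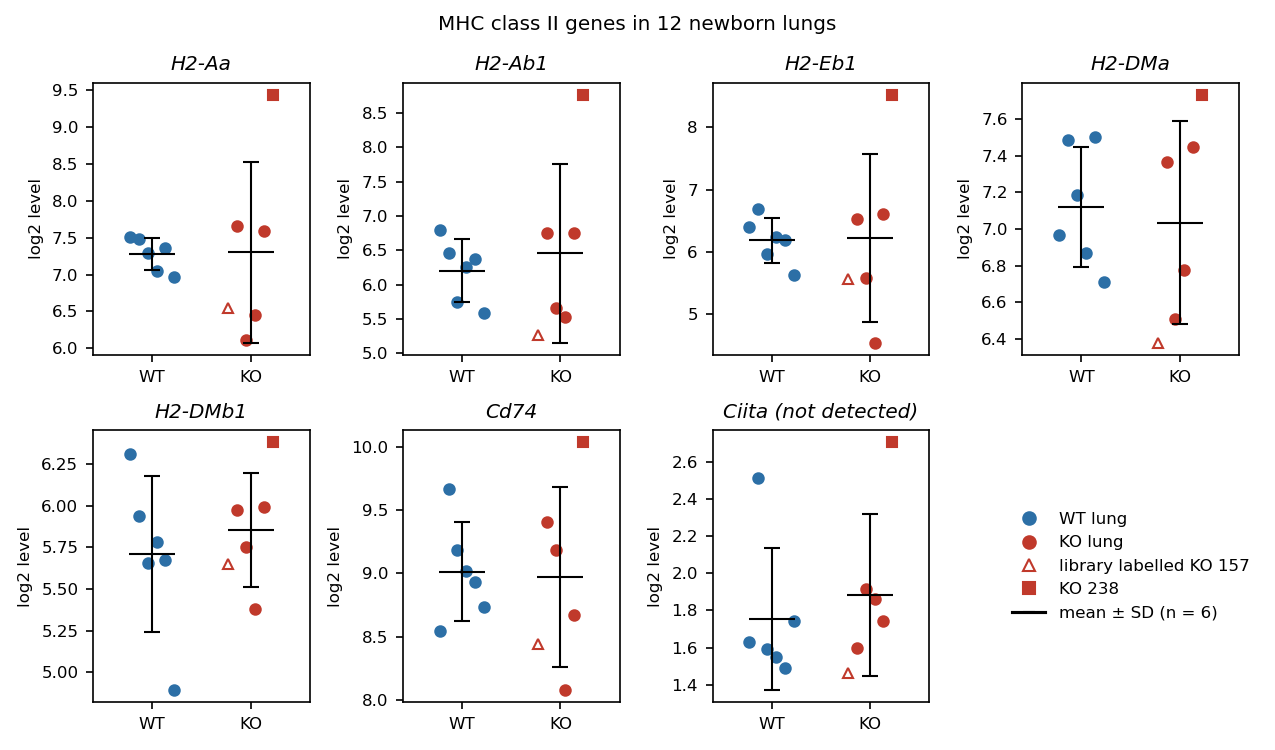
Log2 level (vertical axis, a scale of its own for each gene) of each class II gene in WT lungs (blue) and KO lungs (red), 1 point per mouse, with the group mean and SD (n = 6 each) in black. The KO and WT means lie close together, KO 238 (square) is the highest of 12 lungs in each panel, and the library labelled KO 157 (open triangle) is among the low lungs. Ciita was not detected on any array, so its points are at background.

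Leaving out either of the unusual libraries moved the class II chains in opposite directions but made no call. Without the library labelled KO 157, the difference was 0.17 for H2-Aa (SE 0.42, adjusted p = 0.911 from limma), 0.49 for H2-Ab1 (SE 0.45, adjusted p = 0.713) and 0.17 for H2-Eb1 (SE 0.49, adjusted p = 0.927). H2-DMa was then at 0.05, H2-DMb1 at 0.19 and Cd74 at 0.06. Without KO 238 the signs of the chain genes turned, to −0.41 for H2-Aa (SE 0.26, adjusted p = 0.560 from limma), −0.21 for H2-Ab1 (SE 0.30, adjusted p = 0.825) and −0.42 for H2-Eb1 (SE 0.32, adjusted p = 0.638). H2-DMa was then at −0.22, H2-DMb1 at 0.04 and Cd74 at −0.26. In that fit 0 of 19057 genes passed, while 12.3% had an unadjusted p under 0.05. Without both libraries H2-Aa was at −0.32, H2-Ab1 at −0.03 and H2-Eb1 at −0.37, with 0.021% of all genes called (10.4% at an unadjusted p under 0.05).

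**Figure D2:**
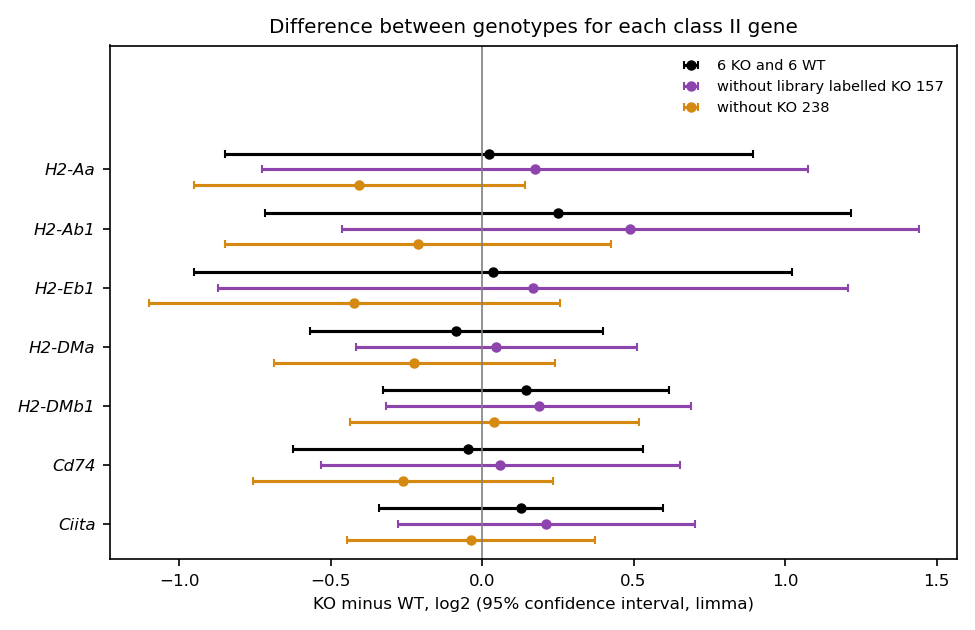
KO minus WT difference (log2, horizontal axis) of each class II gene with its 95% confidence interval from limma, for all 12 arrays (black), without the library labelled KO 157 (purple) and without KO 238 (orange). Every interval includes 0, and the estimates for H2-Aa, H2-Ab1 and H2-Eb1 lie to the left of 0 only without KO 238. The Ciita probes were at background.

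The spread within each genotype was set against that of all 10153 genes with a probe detected on all 12 arrays, as a description with no test. The SD over KO lungs was 5.48 times the SD over WT lungs for H2-Aa, a ratio that 0.414% of these genes reached. It was 3.75 for H2-Eb1 (reached by 1.94%) and 2.85 for H2-Ab1 (5.05%). The ratio was 1.82 for Cd74, 1.68 for H2-DMa and 0.734 for H2-DMb1, against a median of 1.20 over all these genes. A ratio of at least 2.5 was thus reached by 3 of 6 detected members and by 8.1% of all detected genes. H2-DMb1 varied more among WT lungs. The wide KO spread was not particular to the chain genes, as the ratio was 5.65 for Coro1a, 5.15 for Ccl25 and 3.25 for Ctsb among the listed genes.

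KO 238 carried much of this spread, but not all of it. Without KO 238 the ratios were 3.17 for H2-Aa (reached by 4.06% of genes), 2.33 for H2-Eb1 (11.2%) and 1.55 for H2-Ab1 (32.2%), against a median of 1.22. Without the library labelled KO 157 they were 5.84, 4.08 and 2.85. Without both libraries they were 3.53, 2.67 and 1.47.

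**Figure D3:**
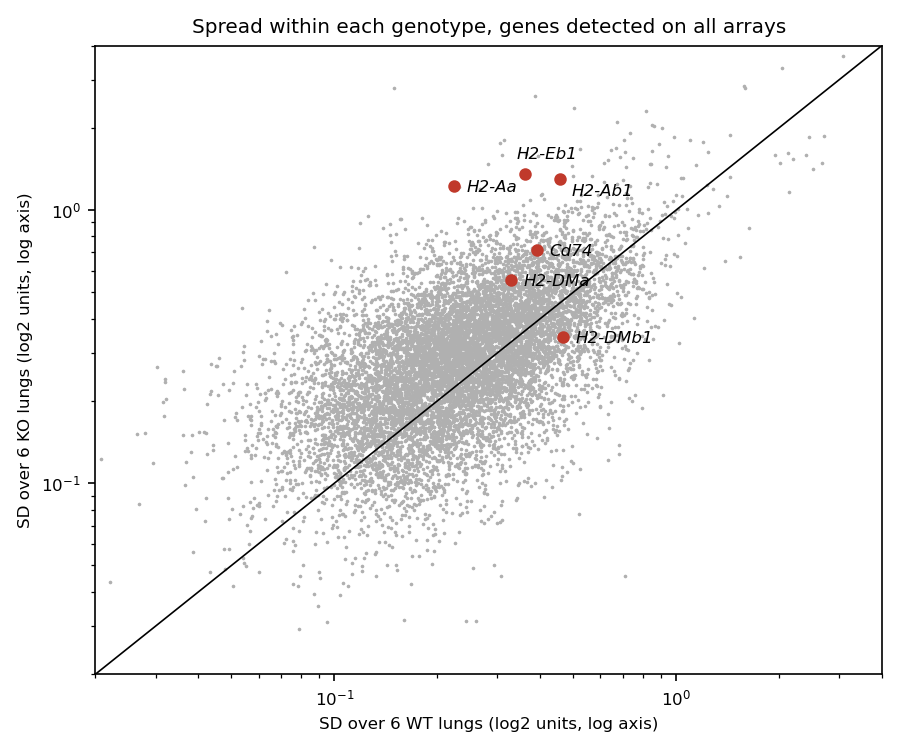
SD over 6 KO lungs against SD over 6 WT lungs (log2 units, both axes logarithmic) for 10153 genes detected on all 12 arrays (grey) and the 6 detected class II genes (red), with the line of equal spread. H2-Aa, H2-Eb1 and H2-Ab1 lie well above the line, at ratios of 5.48, 3.75 and 2.85, and H2-DMb1 lies below it.

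KO 238 was the highest of the 12 lungs for 6 of the 6 detected members, and it was the highest for 6.46% of the 10153 detected genes. Over the WT mean it stood 4.47-fold higher for H2-Aa, 5.90-fold for H2-Ab1 and 5.04-fold for H2-Eb1. It stood 2.03-fold higher for Cd74, 1.59-fold for H2-DMb1 and 1.53-fold for H2-DMa. The members are read in the same libraries, so these are not independent observations.

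Most pairs of members were correlated over the 12 lungs. Of the 15 pairs among the 6 detected genes, Pearson's r lay between 0.48 and 0.94 with a median of 0.75. In a permutation test (two-sided, Benjamini-Hochberg over 15), 13 pairs passed by Pearson's r and 11 by Spearman's rho. The 12 lungs were permuted without regard to genotype. How many pairs of other detected genes would pass was not computed, so these counts are not read as particular to the members. KO 238 contributed to the correlations, since without it 6 of the 15 pairs had r under 0.5, the lowest at 0.28. These 6 were the pairs of Cd74 with H2-Aa, H2-Ab1, H2-DMa and H2-DMb1, and of H2-DMb1 with H2-Aa and H2-DMa. The partners H2-Aa and H2-Ab1 had r = 0.94 (permutation p = 8e-05, adjusted p = 0.00045) and rho = 0.92 (permutation p = 1e-04, adjusted p = 0.00056). Without the 2 lungs farthest from the median of H2-Aa (KO 192 and KO 238) r was 0.89, and it was 0.98 within the KO lungs and 0.74 within the WT lungs. H2-Ab1 and H2-Eb1 had r = 0.93 (0.95 within KO and 0.85 within WT), and H2-Aa and H2-Eb1 had r = 0.93 (0.94 and 0.76).

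Cd74 followed the chain genes less closely than these followed each other. With H2-Eb1 it had r = 0.79 (permutation p = 0.0022, adjusted p = 0.0047) and rho = 0.64 (permutation p = 0.0306, adjusted p = 0.0458). That r was 0.37 without KO 235 and KO 238, 0.86 within the KO lungs and 0.49 within the WT lungs. With H2-Aa, Cd74 had r = 0.66 (permutation p = 0.0185, adjusted p = 0.0257) and rho = 0.48 (permutation p = 0.116, adjusted p = 0.124). The r of H2-Aa and Cd74 was 0.38 without KO 238, 0.75 within the KO lungs and 0.24 within the WT lungs. With H2-Ab1, Cd74 had r = 0.66 (permutation p = 0.0189, adjusted p = 0.0257) and rho = 0.52 (permutation p = 0.0880, adjusted p = 0.102). Without the 2 lungs farthest from the median of H2-Ab1 (KO 157 and KO 238) this last r was 0.25, so it rested on those lungs. It was 0.82 within the KO lungs and −0.03 within the WT lungs. H2-DMb1 and Cd74 had the lowest r of the 15 pairs, 0.48 (permutation p = 0.112, adjusted p = 0.112), with a rho of 0.45 (permutation p = 0.149, adjusted p = 0.149).

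T cell and thymus genes varied along with the class II genes among KO lungs. The summed level of 8 T cell markers, on the linear scale of the normalized values, was 81.8, 585, 59.2, 47.0, 203 and 2489 in KO 157, 186, 192, 235, 237 and 238, and 99.8, 97.6, 237, 189, 323 and 147 in WT 142, 177, 179, 182, 187 and 188. The 3 KO lungs with H2-Aa above all WT lungs (186, 237 and 238) were the 3 with the highest T cell sums among KO lungs, and those with H2-Aa below all WT lungs were the 3 with the lowest, the library labelled KO 157 among them. WT lungs did not repeat this order, as WT 142 had the highest H2-Aa and a low T cell sum, and WT 187 the highest T cell sum.

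Some genes of developing T cells, and Ccl25 among genes of thymic epithelium, were high in KO 238 as well. Not all had the same order in the other KO lungs. Rag1, which cuts the antigen receptor genes in developing lymphocytes, was at 9.26 in KO 238, 3.45 to 6.96 in the other KO lungs and 2.87 to 7.03 in WT lungs. Cd3e, a chain of the T cell receptor complex, was at 8.78 in KO 238, 2.57 to 6.81 in the other KO lungs and 3.55 to 6.03 in WT lungs. Ccl25, a chemokine made by thymic epithelium, was at 7.83 in KO 238, 3.32 to 4.65 in the other KO lungs and 3.94 to 4.82 in WT lungs. Among the other KO lungs, Ccl25 was alike in KO 186 (4.51) and KO 235 (4.51). Ptcra, the surrogate alpha chain of immature T cell receptors, was as high in KO 192 (4.55) as in KO 238 (4.56) and was at 2.89 in KO 186.

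The summed level of 12 thymus markers was 207, 884, 267, 310, 559 and 1828 in KO 157, 186, 192, 235, 237 and 238, and 360 to 758 in WT lungs. This sum weighs its brightest genes most, Cd8b1 among them, which was detected on all 12 arrays. Cd8b1 was at 9.34 in KO 238, 9.03 in KO 186, 2.16 to 7.45 in the other KO lungs and 3.07 to 8.38 in WT lungs. Of the 12 genes, 5 were not detected on any array: Rag2, Dntt, Cd4, Cd8a and Foxn1, the transcription factor of thymic epithelium. Psmb11, the thymus-specific proteasome subunit, was detected on 1 array. It was not high in KO 238 (2.30, against 2.69 to 3.75 in WT lungs). The part of T cell and thymus RNA in the class II values was not tested. Since whole lungs were measured, a different number of class II-bearing cells and a different amount of RNA per cell cannot be told apart.

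Markers of the cells that typically carry class II were summed in the same way. The summed level of 8 measured B cell markers was 175 to 266 in KO and 173 to 266 in WT lungs. It was 395 to 914 and 507 to 916 for 13 dendritic cell markers, 8276 to 12489 and 9864 to 12247 for 11 macrophage and monocyte markers, and 6396 to 9715 and 6534 to 8780 for 10 pan-leukocyte genes. The dendritic cell sum of 395 was that of the library labelled KO 157, and the other KO lungs were at 627 to 914. These sums weigh the brightest genes most, as Lyz2 among the macrophage markers (13.02 in KO and 13.17 in WT lungs) and Fscn1 (8.34 and 8.55) and Cd83 (7.82 and 7.72) among the dendritic cell markers. Single markers differed in either direction without passing, as Mrc1 (0.65, adjusted p = 0.299 from limma), Fcgr1 (−0.58, adjusted p = 0.297) and Zbtb46 (0.61, adjusted p = 0.298). Of these sums, KO 238 was the highest KO lung for the macrophage and the pan-leukocyte genes. The defining dendritic cell markers were faint, with Itgax detected on 0 and Flt3 on 1 of 12 arrays, as was the B cell marker Ms4a1 (1 of 12), while Cd79b, Adgre1 and Csf1r were detected on all 12. The summed level of the class II members themselves was 582 to 2850 in KO lungs (median 973) and 786 to 1431 in WT lungs (median 1011). Of 8 liver markers and 7 measured muscle markers, 0 passed in either direction, with median differences of 1.01 and 0.94, or 1.59 and 1.54 without the library labelled KO 157. At an unadjusted p under 0.05, 4 liver and 2 muscle markers were higher in KO lungs and 0 lower, against 13.7% of all genes in either direction. Both sums were highest among KO lungs in KO 192 (8600 and 19694), whose class II sum was 899.

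**Figure D4:**
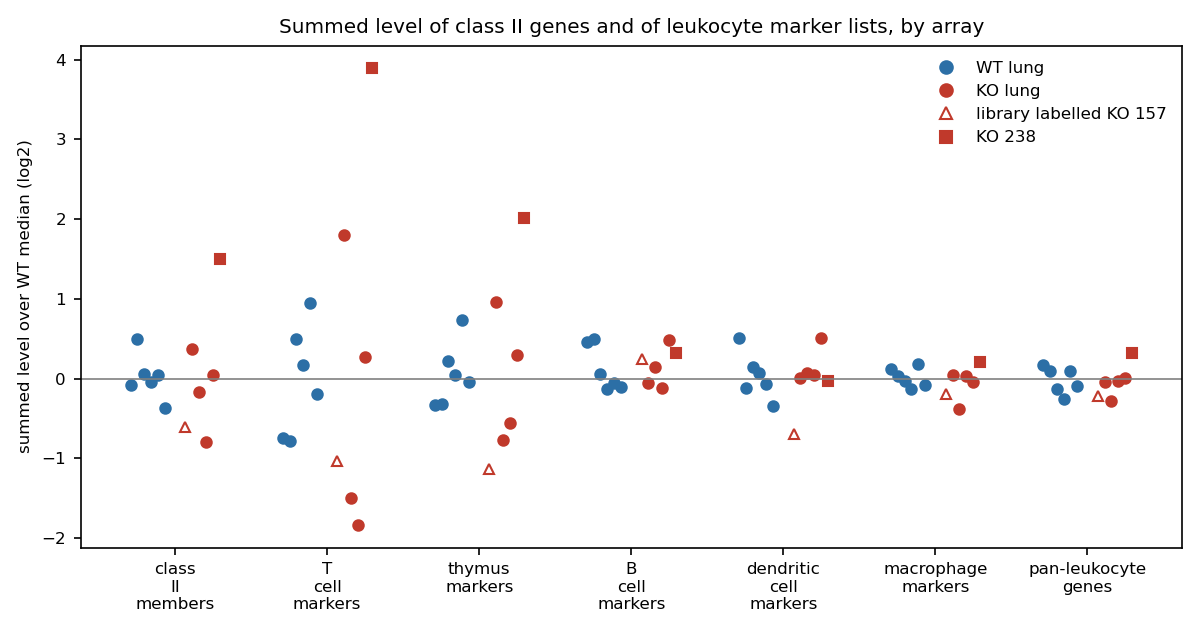
Summed level of each gene list over the median of the WT lungs (log2, vertical axis), 1 point per mouse, for WT lungs (blue), KO lungs (red), the library labelled KO 157 (open triangle) and KO 238 (square). KO 238 lies far above the other lungs for T cell markers, and above all others for thymus markers and the class II members. By a smaller margin it is also the highest lung for macrophage and pan-leukocyte genes. It lies among the other KO lungs for B cell and dendritic cell markers.

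Other genes of the class II pathway were read against the share of all genes called, 0.199%, at which 0 calls are likely in lists of this size. Of 5 other chain and exchange genes, 0 passed in either direction, with a median KO minus WT difference of −0.24 (−0.07 without the library labelled KO 157) against −0.01 over all genes. H2-DMb2 was the only gene of these detected on all 12 arrays, at −0.27 (SE 0.25, adjusted p = 0.691 from limma). H2-Oa, a subunit of the H2-O complex that restrains H2-DM, was detected on 5 arrays and stood at 5.10 in KO 238 against 2.66 to 3.57 in the other KO lungs. H2-Ea, whose promoter is deleted in C57BL/6 mice, was detected on 0 of 12 arrays.

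Of 9 genes of processing and turnover, which include the cathepsins that cut the invariant chain, 0 passed in either direction, with 0.199% of all genes called, and the median difference was 0.06 (0.05 without the library labelled KO 157). All 9 were detected on all 12 arrays. The smallest p-values were those of Ctsd (0.43, SE 0.27, adjusted p = 0.524 from limma), a lysosomal protease, and of Marchf1 (0.32, SE 0.21, adjusted p = 0.554), the ubiquitin ligase that removes class II from the cell surface.

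Of 17 measured genes of class II transcription and of its interferon-gamma input, 0 passed in either direction, with 0.199% of all genes called, and 1 higher and 1 lower gene had an unadjusted p under 0.05 (13.7% of all genes). The median difference was −0.04 (−0.06 without the library labelled KO 157). Irf8, a transcription factor of dendritic cell and macrophage development, was lower in KO lungs without passing. It gave 7.16, 6.82, 7.37, 7.68, 7.77 and 7.33 in KO 157, 186, 192, 235, 237 and 238, and 8.52, 7.97, 8.29, 7.94, 7.86 and 7.76 in WT 142, 177, 179, 182, 187 and 188. Only KO 237 reached the WT range, and the difference of −0.70 had an SE of 0.17 and an adjusted p of 0.0874 from limma, or 0.137 without the library labelled KO 157. Ifngr1, a chain of the interferon-gamma receptor, had a difference of 0.40 (SE 0.17, adjusted p = 0.322), and Ifng was not detected on any array. Of the RFX subunits, Rfxap was detected on all 12 arrays and was at −0.01 (SE 0.09, adjusted p = 0.969), Rfxank on 11 and Rfx5 on 1.

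Of 6 costimulation genes and 15 genes of the class I pathway, 0 passed in either direction, with 0.199% of all genes called and median differences of 0.09 and 0.03 (0.14 and 0.10 without the library labelled KO 157). The smallest p in each list was that of Cd40, a receptor for T cell help (0.59, SE 0.24, adjusted p = 0.301 from limma), and of H2-T23, a nonclassical class I gene (0.29, SE 0.13, adjusted p = 0.335). The value of Cd40 depends on its probes, and the brightest gave −0.30.

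Over all 16 lists, with 153 of 160 genes measured, 1 gene passed. It was Inpp5d, which encodes the phosphatase SHIP1 of blood cells and stands in the pan-leukocyte list, at 5.69 to 6.34 in KO and 4.25 to 5.20 in WT lungs (difference 1.21, SE 0.19, adjusted p = 0.0245 from limma, or 0.0366 without the library labelled KO 157). The KO lungs lay within a narrow range, with KO 238 the highest (6.34) and KO 186 the lowest (5.69). The library labelled KO 157, with Cavin1 at the WT level, was inside that range (6.24). Inpp5d was read by 1 probe (ILMN_2959191). The pan-leukocyte list as a whole did not follow it, with a median difference of −0.04 (−0.0009 without the library labelled KO 157). No correlation of Inpp5d with the class II genes is given here. Without KO 238 its adjusted p was 0.0627, and likewise it no longer passed without KO 237 (0.0516), WT 177 (0.0729), WT 179 (0.0781), WT 182 (0.0675) or WT 187 (0.0552).

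Among 10147 other genes detected on all 12 arrays, those whose pattern was most like the mean of the 6 detected members, each centred on its genotype mean, were Sash3 (r = 0.92), Upk3a (0.92), Gm9731 (0.91), Cbfb (0.91), Coro1a (0.89), Lcmt1 (0.88), Fcho1 (0.88) and Thy1 (0.86), over 12 arrays. Without KO 238 these correlations lay between 0.67 and 0.83, and they share the arrays of the members. Sash3 encodes a lymphocyte adaptor, Coro1a an actin-binding protein of leukocytes, and Thy1 a surface protein of mouse T cells. The others are not described here, and Upk3a had the highest r of the 8 without KO 238 (0.83). No cell type is read from the 8 genes as a group. Sash3 was at 9.08 in KO 238, 7.64 to 8.32 in the other KO lungs and 7.75 to 8.27 in WT lungs. The 8 genes differed between KO and WT lungs by −0.23 to 0.49, and none of them passed (adjusted p from 0.516 to 0.987 from limma).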

How the data were processed

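RNA of whole newborn lungs was hybridized to Illumina mouse arrays. Intensity values (bead signals from GenomeStudio, without background subtraction or normalization) and detection p-values were deposited. The median signal of an array was 97.0 to 121.5. The authors' processed values, a table on a linear scale with a floor of 16 set here, served only as an alternative. Background was removed with the normal-exponential model of RMA, followed by quantile normalization and log2 (R 4.3.3, limma 3.58.1). Of 45281 probes, 34885 had 1 gene, 18 had several and were left out, and 10378 had none. Medians over the probes of each gene gave 19057 genes.

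KO was compared with WT by limma with a mean-variance trend and Benjamini-Hochberg adjustment over all genes, or over 45263 probes, at 0.05. Confidence intervals are at 95%. The study's SAM was not run here. Correlations between members were tested with 100000 permutations. The procedure was tested on simulated data. A longer form of the X box core was searched first and matched the same 2 member promoters. The number of arrays and the signal over background limit the precision. The p-values of limma set a difference against the spread between mice, moderated over genes, and litters were not modelled.

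All 7 members are named, with up to 3 genes of a list by smallest p, the first 2 genes of a marker list, the 8 genes most like the members, and Cavin1. H2-Oa, Ccl25, Cd8b1, Cd79b, Ctsb, Lyz2, Fscn1, Cd83, Ifng, the RFX genes and the genes not detected were named after their values were seen. Members and lists were chosen with earlier results of these data known. No chip or scan label was given, so no batch was fitted. The alternatives were other background corrections, scalings, filters, probe rules, tests and arrays left out.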

Additional observations from a re-analysis of the deposited data

Results flagged for a closer look

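Of 60 groups of values examined for an array far from the rest of its group, 9 had one. Chance gives about 1 in 20, but the count cannot be read against that rate, since the groups overlap (a gene and its probes) and hold genes named after their values were seen. KO 238 stood apart from the other KO lungs for the H2-Ab1 probe ILMN_1226525 (log2 level 9.61, others 6.07 to 7.38), for H2-Oa (5.10, others 2.66 to 3.57), for Ccl25 (7.83, others 3.32 to 4.65) and for the summed level of T cell markers (2489, others 47.0 to 585).

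The undetected Ciita also had arrays that stood apart, at levels where its probes did not exceed background. These were KO 238 for the merged gene (2.70, others 1.46 to 1.92) and the probe ILMN_2568407 (2.47), and WT 177 for the merged gene (2.51, others 1.49 to 1.74) and the probe ILMN_2678211 (3.39). Cavin1 in the library labelled KO 157 was at 10.07, against 2.72 to 4.13 in the other KO lungs.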

How the results depend on the processing

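No member passed under any alternative that could be run, and over 282 values of single member probes the lowest adjusted p was 0.253 from limma or the methods' t-test. With the library labelled KO 157 kept, Cavin1 itself did not pass in some of these alternatives. Its adjusted p was 0.0808 with the authors' values and 0.102 without a trend (limma). It was 0.105 with the methods' t-test, and 0.0639 from limma without KO 238. With 1 array left out in turn, the KO minus WT difference ran from −0.41 to 0.26 for H2-Aa and its probe, −0.21 to 0.49 for H2-Ab1 (−0.39 to 0.32 for ILMN_1226525, −0.22 to 0.50 for ILMN_2913716), −0.42 to 0.37 for H2-Eb1 and its probe, −0.22 to 0.046 for H2-DMa (−0.052 to 0.24 for ILMN_2777769), −0.018 to 0.27 for H2-DMb1 and its probe, −0.26 to 0.13 for Cd74 (−0.26 to 0.15 for ILMN_3089584) and −0.037 to 0.28 for Ciita (−0.14 to 0.29 for ILMN_2678211), whose probes were at background, so that no difference is read from its values. Without KO 157 and KO 238, an alternative chosen after seeing the data, the values were −0.32 for H2-Aa (ILMN_2734729), −0.029 for H2-Ab1 (ILMN_2631423 alike, and −0.27 for ILMN_1226525), −0.37 for H2-Eb1 (ILMN_1239102) and −0.069 for the Ciita probe ILMN_2678211, which was at −0.0046 with neqc. Array weights gave 0.017 for H2-DMa, 0.0052 for Cd74 and 0.027 for its probe ILMN_3089584. Cd40 was at −0.041 with either detection filter and −0.30 with its brightest probe. Ciita fell out under the detection filters. The count of list genes past the threshold was 1, and it was 0 with limma without a trend, with the methods' t-test and without KO 157 and KO 238, 2 with array weights (Inpp5d and Cldn5), and 0 to 4 with 1 array left out, 4 without KO 192 (Inpp5d, Cldn5, Pecam1 and Tie1). The cause was not tested. No paired analysis was possible because KO and WT mice share no animal number.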
